A study of Mus musculus with 4 samples.

Results

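Solute carriers (SLC) are membrane proteins that move ions, metals, sugars, amino acids, neurotransmitters and metabolites across the membranes of cells and organelles. Their transcripts were followed in RNA bound by YTHDF2 in the newborn mouse retina. The members were the genes whose symbol has the form Slc, a family number, the letter a and a member number, with at least 20 raw counts in each of the 4 libraries. There were 133 such genes, out of 340 genes with a symbol of this form and 52550 genes in the count table. The libraries came from retinas of wild type C57BL/6 mice at postnatal day 0, dissociated with papain. RNA was pulled down with an antibody against YTHDF2 (RNA immunoprecipitation, RIP) and compared with input RNA, in 2 replicates, each with an input and a RIP library. A pulldown with control IgG, which the methods of the study describe, was not analysed here, so that binding to the antibody or beads was not measured. The minimum used the counts of all 4 libraries, and every member is therefore present in both input and RIP by its choice.

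YTHDF2 is a cytoplasmic protein that recognises N6-methyladenosine (m6A), a methyl mark on adenosines of messenger RNA, and is known to direct bound transcripts towards decay. m6A is typically densest around the stop codon and in the 3' untranslated region (UTR). Of the transporters followed here, the SLC1 and SLC6 families clear glutamate, GABA, glycine and taurine from the space around neurons, SLC12 cotransporters set the chloride gradient on which GABA acts, and SLC25 carriers exchange metabolites across the inner mitochondrial membrane. In the retina, glucose enters mainly through *Slc2a1*, and lactate through members of SLC16.

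The sequence GGACT, a form in which m6A is often found, is shown here as it lies nearest to the stop codon in the transcripts of 5 members with large rises and 3 with large falls in the RIP. The windows of 25 bases are from GRCm38 in the sense of the transcript, 5' to 3', with T for U, and the capitals mark GGACT.
Slc11a2: tgtctttcctGGACTgtggacgctc
Slc5a3: cctaaacattGGACTttttgctgtg
Slc1a2: taccctccagGGACTtaagacaacg
Slc25a51: tctgcacggaGGACTggagcagagg
Slc12a5: agggcatcaaGGACTtcttcagcat
Slc25a5: aataatgatgGGACTcaattatatt
Slc25a39: cgcccagagtGGACTccacctggct
Slc16a6: ccccgctgttGGACTtctccgtctt
Distances are counted from the last coding base before the stop codon to the first base of GGACT. Within the coding sequence, the windows lay at chr15:100395271-100395295 on the minus strand for *Slc11a2* (distance -69) and at chr16:92079147-92079171 on the plus strand for *Slc5a3* (distance -53). Those of *Slc12a5* (chr2:164996488-164996512, plus strand, distance -258), *Slc25a39* (chr11:102403683-102403707, minus strand, distance -177) and *Slc16a6* (chr11:109455318-109455342, minus strand, distance -717) were also coding. The windows of *Slc1a2* (chr2:102781892-102781916, plus strand, distance 371), *Slc25a51* (chr4:45398861-45398885, minus strand, distance 369) and *Slc25a5* (chrX:36798725-36798749, plus strand, distance 194) lay in the 3' UTR. GGACT was found on the transcripts of 20 of 20 enriched and 5 of 6 depleted members, with medians of 5.5 and 2 matches. Over all members it was on the sense strand of the longest coding transcript of 129 of the 133 members (97.0%), against 93.9% of the 9291 protein-coding genes that have at least 20 counts in each library and an annotated coding transcript. These are matches of 5 letters, and no measurement of m6A was made in these libraries.

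The libraries held 39499994 and 36236531 counts in the inputs against 19530226 and 24903212 in the RIP. Most counts came from the 2 ribosomal RNA genes AY036118 and CT010467.1, which took 55.0 to 55.5% of the inputs and 85.3 to 87.8% of the RIP, and protein-coding genes held 4088424 and 4175459 counts in the inputs against 2203538 and 2083594 in the RIP. All 13 listed retina markers had counts. Of 8 markers of retinal pigment epithelium, 5, among them *Rpe65* and *Tyr*, were at 0 in all 4 libraries, as were 7 of 9 lens markers. The summed counts of 7 vessel markers were 1171 and 1156 in the inputs against 1748 and 1707 in the RIP. Most of these came from *Kdr*, with 997 and 1037 in the inputs against 1597 and 1564 in the RIP, whereas *Pecam1* and *Rgs5* had counts in both inputs and 0 in both RIP libraries. Those of 5 microglia markers lay between 58 and 107. The part of these cells in the results was not tested, and in bulk RNA fewer cells of a type and less RNA per cell cannot be told apart. The inputs differed more between replicates than the RIP libraries did: the median absolute log2 difference of the members was 0.52 between inputs, with 31 members past 1, and 0.23 between RIP libraries, with 3 members past 1. A fit without an input takes its spread from the RIP libraries alone, and one without a RIP library from the inputs alone. Calls in such fits are therefore not on the same footing as those with all libraries.

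Solute carrier transcripts took a larger share of the protein-coding counts in the RIP than in the input. The share was 0.679% and 0.567% in inputs 1 and 2 and 1.05% and 1.06% in RIP 1 and 2, so that both RIP libraries lay above both inputs. Mitochondrially encoded genes took 18.6 and 19.4% of all counts in inputs 1 and 2 against 0.578 and 0.522% in RIP 1 and 2. Their messenger RNAs were not taken out of the protein-coding counts, and their part in the rise was not tested. No such share was taken for other nuclear genes. In the edgeR quasi-likelihood fit of all 13632 genes tested, 20 members were enriched (15%), defined as a log2 fold change of RIP against input of at least 1 with an unadjusted p below 0.05, and 6 were depleted (4.51%), defined by a log2 fold change of -1 or lower. Of all genes tested, 9.43% were enriched and 17.2% depleted, and of the 9753 genes with at least 20 counts in each library 11.4% and 14.7%. After Benjamini-Hochberg adjustment over all genes tested, 7 of the enriched and 2 of the depleted members had an adjusted p below 0.05 (5.26% and 1.5%, against 3.48% and 9.78% of all genes tested and 4.42% and 9.25% of those with at least 20 counts in each library). With library size alone in place of TMM scaling, under which the median over all genes went from -0.05 to 0.27, the counts were 35 enriched and 4 depleted members, and those of all genes went from 1286 enriched and 2344 depleted to 2359 and 1725. Among the members, 63 had both RIP libraries above both inputs (47.4%) and 16 had both below (12%). Of all genes tested 29.6% had both above and 31.3% both below. Of those with at least 20 counts in each library these shares were 34.9% and 27.3%. The median log2 fold change of the members was 0.36, next to -0.05 for all genes tested and 0.11 for protein-coding genes with at least 20 counts in each library. These counts describe a list chosen with earlier results of the same libraries known, and no test was made of the list against other genes.

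**Figure D1:**
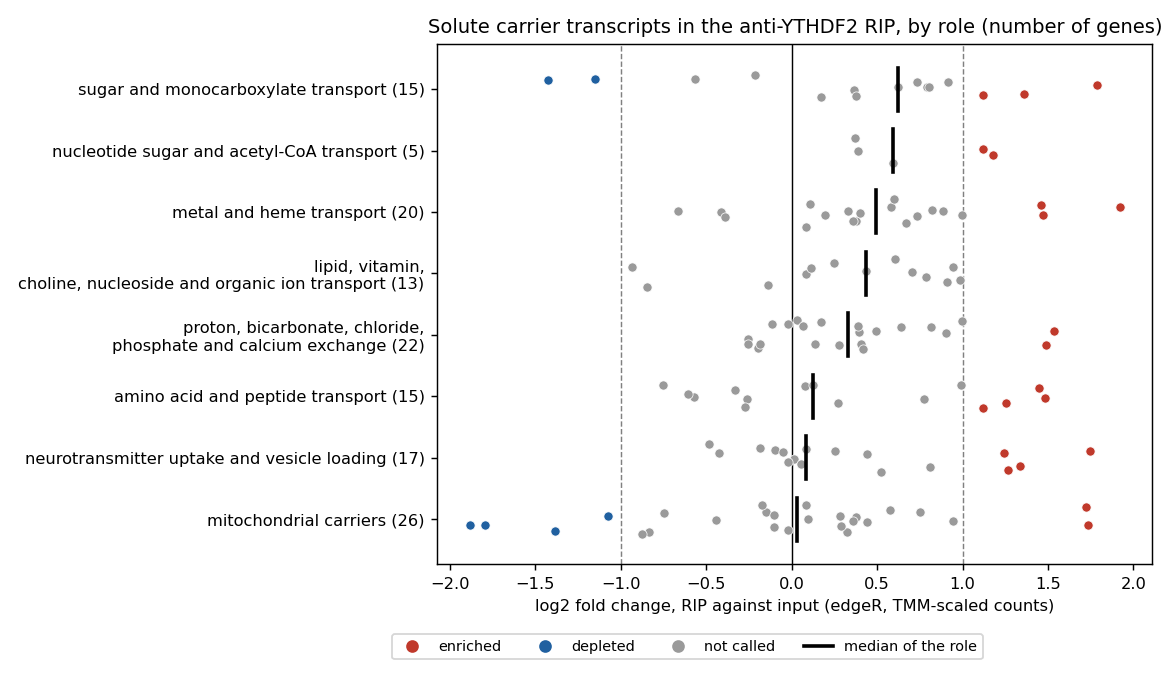
Log2 fold change of RIP against input (x axis) for each of the 133 solute carrier genes, grouped by the role of the family, with the number of genes in brackets. Points are genes, red if enriched, blue if depleted and grey if not called, black bars are the medians of the roles and dashed lines mark -1 and 1. Median values run from 0.03 in the mitochondrial carriers to 0.63 in the sugar and monocarboxylate transporters, and the depleted genes are 4 mitochondrial carriers and 2 genes of the sugar and monocarboxylate role.

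The members covered a wide range of levels. On the FPKM scale, which is per length and per library, the mean input level ran from 0.0807 to 13.6, with a median of 0.524. The highest was that of *Slc2a1*, which encodes the glucose transporter GLUT1, with 17.5 and 9.84 FPKM in the inputs and 13.8 and 9.28 FPKM in the RIP. Next were *Slc25a4* and *Slc25a5*, the ADP/ATP carriers of mitochondria, with input levels of 9.74 and 8.82 FPKM for *Slc25a4* and 9.31 and 6.42 FPKM for *Slc25a5*. *Slc2a1* was the highest in each input, and the order of *Slc25a4* and *Slc25a5* did not exceed the spread between inputs.

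Among the families that hold the transporters for neurotransmitters (SLC1, SLC6, SLC17 and SLC32), 4 of 17 members were enriched and none was depleted, with a median log2 fold change of 0.09. Of genes with at least 20 counts in each library, 11.4% were enriched and 14.7% depleted. The role went by family number, and some of its members carry other substrates. Among these are the enriched *Slc6a8*, *Slc6a17* and *Slc1a4*, which carry creatine or neutral amino acids. Without RIP 1 the enriched genes were 2, and the median was 0.39 without input 1 and 0.43 with library size alone. *Slc1a2* encodes the glutamate transporter GLT-1 and lies at chr2:102658659-102790784 on the plus strand. Its level, in CPM (counts scaled to library size) after TMM scaling, was 4.92 and 17.9 in inputs 1 and 2 and 38.7 and 37.6 in RIP 1 and 2. The RIP libraries were alike and both were above the inputs, which lay far apart. The log2 fold change was 1.74 ± 0.55 (SE, n = 2 per group; unadjusted p = 0.0124, adjusted p = 0.0727), and with the replicate number as a block it was 2.01 with an adjusted p of 0.0024. Its size rested on the inputs: without input 1 it was 1.10 and without input 2 it was 2.95. The p-values with the replicate block, here and below, rest on a spread taken from across genes. They are not stronger evidence than those without the block.

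Of the other neurotransmitter carriers, those described next were not called, with errors that differ widely between them. *Slc1a3*, the glutamate transporter GLAST of Müller glia and progenitors, had 13.9 and 16.5 CPM in the inputs and 14.8 and 15.3 CPM in the RIP, a log2 fold change of -0.02 ± 0.33 (SE). Its RIP levels lay within the range of the inputs. *Slc6a9*, the glycine transporter GlyT1, had a log2 fold change of -0.05 ± 0.48 (SE), and *Slc6a6*, the taurine transporter, one of -0.19 ± 0.34 (SE). That of *Slc6a9* ran from -0.50 without input 2 to 0.58 without input 1, so that no direction can be given. *Slc32a1*, which loads GABA and glycine into vesicles, had 3.15 and 1.72 CPM in the inputs and 2.69 and 3.91 CPM in the RIP, and the groups overlapped. *Slc17a6*, the vesicular glutamate transporter VGLUT2 of retinal ganglion cells, was below the minimum, with 16 and 61 counts in the inputs against 11 and 5 in the RIP, a log2 fold change of -1.79 that was not called (unadjusted p = 0.063). Without input 1 it was -2.44, and without input 2 it was -0.57. *Slc6a9* overlaps *B4galt2* on the other strand, and the strand setting of the counting is not given in the sources used here.

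The remaining 3 enriched genes of this role, and the members *Slc43a2*, *Slc38a10* and *Slc45a4* below, fall outside the naming rule and were named after their values were seen. *Slc6a17*, a vesicular transporter of neutral amino acids, had 3.75 and 2.77 CPM in the inputs and 9.03 and 7.40 CPM in the RIP, a log2 fold change of 1.33 ± 0.38 (SE; adjusted p = 0.0528, and 0.0440 with the replicate block). The creatine transporter *Slc6a8* had a log2 fold change of 1.24 ± 0.36 (SE; adjusted p = 0.0526), and *Slc1a4*, which exchanges serine and other neutral amino acids, one of 1.26 ± 0.41 (SE; adjusted p = 0.0759). In all 3 genes both RIP libraries were above both inputs. *Slc6a17* lost the call without RIP 1 (1.29), *Slc1a4* without RIP 1 (1.21) and *Slc6a8* without RIP 2 (1.21).

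**Figure D2:**
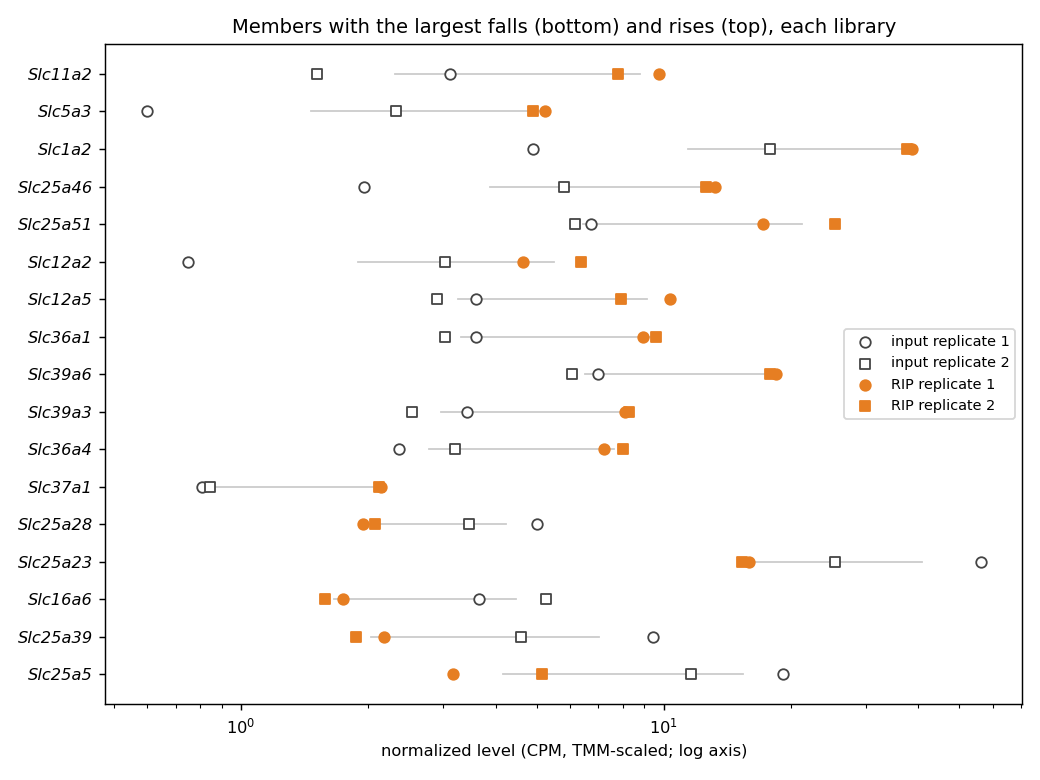
Level in each library (x axis, CPM after TMM scaling, log axis) of the 12 enriched members with the largest log2 fold change (top) and 5 of the 6 depleted members (bottom). Open symbols are inputs and filled symbols RIP libraries, circles are replicate 1 and squares replicate 2, and a grey line joins the mean of the inputs to the mean of the RIP libraries. In all 17 genes the RIP symbols lie on one side of both inputs, and the open symbols are far apart in *Slc5a3*, *Slc1a2*, *Slc25a46* and *Slc12a2*.

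Metal and heme transporters (SLC11, SLC30, SLC31, SLC39, SLC41 and SLC48) had 20 members. Of genes with at least 20 counts in each library, 11.4% were enriched and 14.7% depleted. In this role 3 of 20 were enriched, all 3 with an adjusted p below 0.05 in edgeR, and none was depleted. With the replicate block 5 were enriched, and without input 2 it was 7. *Slc11a2* encodes DMT1, which brings iron and other divalent metals into the cell and out of endosomes, and lies at chr15:100387898-100425072 on the minus strand. It had 3.12 and 1.51 CPM in the inputs and 9.74 and 7.81 CPM in the RIP. The RIP levels both exceeded the input levels, and replicate 1 was the higher of each pair. The log2 fold change of 1.92 ± 0.45 (SE; adjusted p = 0.0278) was the largest among the members. The zinc importers *Slc39a6* (minus strand of chromosome 18) and *Slc39a3* (chr10:81028538-81037426, minus strand) had tighter replicates. *Slc39a6* had 6.98 and 6.06 CPM in the inputs and 18.4 and 17.8 CPM in the RIP, a log2 fold change of 1.47 ± 0.33 (SE; adjusted p = 0.0238). *Slc39a3* had 3.42 and 2.53 CPM in the inputs and 8.08 and 8.27 CPM in the RIP, a log2 fold change of 1.46 ± 0.38 (SE; adjusted p = 0.0384). In both genes the difference between the groups was several times the difference between replicates. The gene *Elp2* overlaps *Slc39a6* on the other strand, with 957 counts over the 4 libraries against 1334 of *Slc39a6* and a log2 fold change of -0.07. The zinc exporters of SLC30 had 0 called members among 7 with all libraries and a median log2 fold change of 0.58. With the replicate block 1 was enriched and without input 2 it was 3, and the median was 0.12 without input 1 and 0.045 with the length trend taken out. The highest of this role per length, *Slc39a1*, had a log2 fold change of 0.11 ± 0.35 (SE).

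Chloride cotransporters of SLC12 had log2 fold changes above 0 in 6 of 6 members, with a median of 0.86, and 2 were enriched, 4 without input 2 and 1 without input 1 or without RIP 2. Values above 0 were also found in 69.2% of all 133 members and in 53.8% of the genes with at least 20 counts in each library. All 6 SLC12 members were above 0 under each scaling of the libraries, and 5 of 6 with the transcript length trend taken out, without input 2 and without RIP 1. *Slc12a5* encodes KCC2, the potassium-chloride cotransporter that lowers neuronal chloride as neurons mature, and lies at chr2:164960802-164999731 on the plus strand. It had 3.60 and 2.91 CPM in the inputs and 10.3 and 7.94 CPM in the RIP, with no overlap, and a log2 fold change of 1.49 ± 0.38 (SE; adjusted p = 0.0355). *Slc12a2* encodes NKCC1, which works in the other direction and accumulates chloride in immature neurons, and lies on the plus strand of chromosome 18. It had 0.749 and 3.03 CPM in the inputs and 4.63 and 6.36 CPM in the RIP, from 25, 104, 117 and 153 counts. Input 1 was far below input 2, and both RIP libraries were above both. The log2 fold change was 1.54 ± 0.61 (SE; unadjusted p = 0.0335, adjusted p = 0.133), with the replicate block 1.80 (adjusted p = 0.0072), without input 1 no longer called at 0.86, without RIP 2 no longer called at 1.34 and without input 2 called at 2.86.

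Of the other exchangers of protons, bicarbonate, phosphate and calcium none was called with all libraries, so that 2 of the 22 members of this role were enriched and 0 depleted. The shares of genes with at least 20 counts in each library were 11.4% and 14.7%. The role had 3 enriched genes with the replicate block, 1 of them in the bicarbonate family SLC4, and 5 without input 2 but 1 without RIP 2. The SLC9 genes stood on the other side of 0, with log2 fold changes between -0.26 and -0.11 in 5 of 5 genes. This direction depended on the scaling, since all 5 were above 0 with library size alone. The 5 genes include *Slc9a3r1*, the member of this role with the highest input level per length, which encodes the scaffold protein NHERF1 and no transporter but has a symbol of the chosen form. It had 4.98 and 2.13 CPM in the inputs and 3.53 and 2.66 CPM in the RIP, with RIP levels inside the range of the inputs.

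Amino acid and peptide transporters (SLC3, SLC7, SLC15, SLC36, SLC38 and SLC43) had 4 enriched and no depleted genes among 15, and 2 were enriched without RIP 2. Of genes with at least 20 counts in each library, 11.4% were enriched and 14.7% depleted. Both members of SLC36, proton-coupled amino acid transporters of lysosomes and other membranes, were among the 4 enriched genes. *Slc36a1* (chr11:55204350-55236330, plus strand) had 3.60 and 3.03 CPM in the inputs and 8.91 and 9.60 CPM in the RIP, a log2 fold change of 1.48 ± 0.36 (SE; adjusted p = 0.0316). *Slc36a4* (chr9:15709738-15743361, plus strand) had 2.37 and 3.20 CPM in the inputs and 7.21 and 8.02 CPM in the RIP, a log2 fold change of 1.45 ± 0.38 (SE; adjusted p = 0.0410). In both genes each RIP library had more than the higher input by far more than the replicates differed. *Slc38a1*, which takes up glutamine, lay just under the limit of 1, with 22.2 and 27 CPM in the inputs, 52.4 and 45.6 CPM in the RIP and a log2 fold change of 0.99 ± 0.34 (SE; unadjusted p = 0.0169, adjusted p = 0.0874), and it was called at 1.13 without input 2. *Slc38a10* had a log2 fold change of 1.12 ± 0.38 (SE; adjusted p = 0.0881), which was 0.77 without input 2. *Slc43a2*, a transporter of large neutral amino acids, had one of 1.26 ± 0.54 (SE; adjusted p = 0.160), which was 0.43 without RIP 2 and 1.89 without RIP 1. The antisense gene *Gm45606* overlaps *Slc43a2* on the other strand, with 89 counts against 332 and a log2 fold change of 1.35.

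The transporter of large neutral amino acids formed by *Slc3a2* and *Slc7a5* was not called in either subunit with all libraries. *Slc3a2*, the heavy chain and the highest of this role per length, had 16.9 and 10.2 CPM in the inputs and 10.5 and 11 CPM in the RIP, a log2 fold change of -0.33 ± 0.37 (SE). *Slc7a5*, the light chain LAT1, had 16.5 and 6.38 CPM in the inputs and 7.05 and 7.98 CPM in the RIP, a log2 fold change of -0.61 ± 0.47 (SE). That of *Slc7a5* depended on the inputs, at 0.24 without input 1 and -1.14 without input 2. In both genes the RIP levels lay inside the range of the inputs. The member just above the minimum, *Slc43a3*, had 56 and 48 counts in the inputs against 23 and 22 in the RIP, a log2 fold change of -0.75 ± 0.51 (SE).

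Mitochondrial carriers (SLC25), the largest family with 26 members, had called genes in both directions. Beside 11.4% enriched and 14.7% depleted among genes with at least 20 counts in each library, 2 of the 26 were enriched and 4 depleted. Their median log2 fold change was 0.03. The median was -0.32 without input 2, 0.12 without input 1, 0.27 without RIP 2 and 0.40 with library size alone. Without input 2, 4 were enriched and 6 depleted, without input 1, 3 and 2, and without either RIP library 2 and 1. *Slc25a51*, which brings NAD into mitochondria and lies at chr4:45395923-45408766 on the minus strand, had 6.71 and 6.17 CPM in the inputs and 17.2 and 25.3 CPM in the RIP. The inputs were nearly equal and both RIP libraries were far above them. Its log2 fold change was 1.72 ± 0.36 (SE; adjusted p = 0.0179). *Slc25a46*, a protein of the outer mitochondrial membrane that takes part in mitochondrial dynamics and lies on the minus strand of chromosome 18, had 1.95 and 5.80 CPM in the inputs and 13.2 and 12.6 CPM in the RIP. Its log2 fold change was 1.73 ± 0.51 (SE; adjusted p = 0.0570, and 0.0021 with the replicate block), and it was 1.15 without input 1 and 2.72 without input 2.

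The 4 depleted carriers included some of the highest of the family in the input. *Slc25a5*, which encodes the ADP/ATP carrier ANT2 and lies at chrX:36795651-36798807 on the plus strand, had 19.1 and 11.6 CPM in the inputs and 3.17 and 5.15 CPM in the RIP. Both RIP libraries were far below both inputs. Its log2 fold change of -1.88 ± 0.42 (SE; adjusted p = 0.0231) was the lowest among the members, and it was no longer called without RIP 1 (-1.46). *Slc25a39*, which brings glutathione into mitochondria (chr11:102402985-102407946, minus strand), had 9.44 and 4.60 CPM in the inputs and 2.18 and 1.87 CPM in the RIP. The log2 fold change was -1.79 ± 0.46 (SE; adjusted p = 0.0380), -1.18 without input 1 and, no longer called, -1.57 without RIP 2. *Slc25a23*, an ATP-magnesium/phosphate carrier regulated by calcium (chr17:57043711-57059863, minus strand), had 56.2 and 25.4 CPM in the inputs and 15.9 and 15.3 CPM in the RIP. It fell by 1.39 on the log2 scale (SE 0.43, adjusted p = 0.0687), and the call was lost without input 1 (-0.70), without RIP 1 (-1.29) and without RIP 2 (-1.24). *Slc25a28*, the iron carrier mitoferrin 2 (chr19:43663801-43674881, minus strand), had 5.01 and 3.47 CPM in the inputs and 1.94 and 2.08 CPM in the RIP. Its log2 fold change of -1.07 ± 0.41 (SE; adjusted p = 0.120) was not called without input 1 (-0.79), without RIP 1 (-0.92) or without RIP 2 (-1.02).

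Other carriers of the inner membrane that serve ATP synthesis were not called. *Slc25a4*, the ADP/ATP carrier ANT1, had 28.5 and 22.9 CPM in the inputs and 13 and 15 CPM in the RIP, with no overlap, a log2 fold change of -0.88 ± 0.34 (SE; unadjusted p = 0.0301, adjusted p = 0.124) that lay above the limit of -1 and was called at -1.03 without input 2. *Slc25a3*, the phosphate carrier, pointed the other way with 13 and 8.18 CPM in the inputs, 16.4 and 19.3 CPM in the RIP and a log2 fold change of 0.75 ± 0.37 (SE; unadjusted p = 0.0710), called at 1.13 without input 1. The snoRNA gene *Gm24119* lies inside *Slc25a3* on the same strand, with 357 counts against 1594. *Slc25a38*, just above the minimum with 22 counts in RIP 2, had a log2 fold change of -0.75 ± 0.51 (SE).

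Transporters of sugars and monocarboxylates (SLC2, SLC5, SLC16, SLC37 and SLC45) had 15 members. Beside 11.4% enriched and 14.7% depleted among genes with at least 20 counts in each library, 3 of these 15 were enriched and 2 depleted. Without input 1 these counts were 6 and 1, without input 2 they were 2 and 2, and without either RIP library 1 and 0. *Slc5a3*, the sodium/myo-inositol cotransporter SMIT1 (chr16:92058322-92087473, plus strand), had 20 and 80 counts in the inputs against 132 and 118 in the RIP, which is 0.599 and 2.33 CPM against 5.23 and 4.90 CPM. It was the member with the lowest count, and input 1 lay at the minimum. The log2 fold change was 1.79 ± 0.59 (SE; adjusted p = 0.0832, and 0.0026 with the replicate block), 1.12 without input 1 and 3.06 without input 2. *Slc5a3* shares its locus and strand with *Mrps6*, which had 154 counts and a log2 fold change of -1.10, so that the split of reads between these genes is uncertain. *Slc37a1*, a sugar phosphate transporter of the endoplasmic reticulum (chr17:31286792-31350739, plus strand), had 0.809 and 0.845 CPM in the inputs and 2.14 and 2.12 CPM in the RIP, from 27, 29, 54 and 51 counts. Its log2 fold change of 1.36 ± 0.48 (SE; adjusted p = 0.0996) was not called without RIP 1 (1.45) or without RIP 2 (1.45). *Slc45a4* had a log2 fold change of 1.12 ± 0.49 (SE; adjusted p = 0.165), which was 0.64 without input 2 and 1.81 without input 1.

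*Slc16a6* was one of the depleted genes of this role. It encodes a monocarboxylate transporter that carries ketone bodies and lies at chr11:109450855-109473598 on the minus strand. It had 3.66 and 5.27 CPM in the inputs and 1.74 and 1.58 CPM in the RIP. It fell by 1.42 on the log2 scale (SE 0.41, adjusted p = 0.0559, and 0.0439 with the replicate block), and the call was lost without RIP 1 (-1.42) and without RIP 2 (-1.28). On the other strand *Amz2* overlaps it with 1879 counts, against 385 of *Slc16a6*. The lactate carrier *Slc16a1* had 3.45 and 2.36 CPM in the inputs and 5.11 and 4.94 CPM in the RIP, without overlap and not called at a log2 fold change of 0.79 ± 0.39 (SE; unadjusted p = 0.0767), but called at 1.09 without input 1. The glucose transporter *Slc2a1* had 76.1 and 37.9 CPM in the inputs and 40.5 and 36.6 CPM in the RIP, a log2 fold change of -0.56 ± 0.40 (SE; unadjusted p = 0.199), and the groups overlapped. The neuronal glucose transporter *Slc2a3* lay just below the minimum, with 19 and 20 counts in the inputs against 35 and 34 in the RIP and a log2 fold change of 1.27 (unadjusted p = 0.051).

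All 5 members of the nucleotide sugar transporter family SLC35A had log2 fold changes above 0, between 0.37 and 1.18, and 2 were enriched. Of all 133 members 69.2% were above 0. Of genes with at least 20 counts in each library 53.8% were above 0, 11.4% enriched and 14.7% depleted. The SLC35A values above 0 held under each scaling, and 4 of 5 were above 0 without input 1 and 3 of 5 with the length trend taken out. Other SLC35 genes, outside the symbol pattern, went both ways. Named after their values were seen, *Slc35b1* was depleted at -1.52 (adjusted p = 0.0441 in edgeR) and *Slc35b4* enriched at 1.48 (adjusted p = 0.0368 in edgeR). *Slc35a1* brings CMP-sialic acid into the Golgi apparatus. It had 24 and 46 counts in the inputs against 57 and 58 in the RIP, a log2 fold change of 1.18 ± 0.50 (SE; adjusted p = 0.159), and the call was lost without input 1 (0.80), without RIP 1 (1.30) and without RIP 2 (1.19). *Slc35a4*, the highest of this role per length, had 4.35 and 3.64 CPM in the inputs and 8.95 and 8.39 CPM in the RIP, a log2 fold change of 1.12 ± 0.36 (SE; adjusted p = 0.0751). It was not called without input 2 (0.99), without RIP 1 (1.17) or without RIP 2 (1.26). Carriers of lipids, vitamins, choline, nucleosides and organic ions had 0 called genes among 13 in the edgeR fit of all 4 libraries, with log2 fold changes from -0.94 to 0.98. *Slc23a2* (0.95, unadjusted p = 0.0301) and *Slc27a1* (0.91, unadjusted p = 0.0270), named after their values were seen, were the 2 with an unadjusted p below 0.05. The counts were 4 enriched without input 1, 1 enriched and 2 depleted without input 2, 1 enriched without RIP 2 and 3 enriched with library size alone. The highest of them per length, *Slc29a4*, a monoamine transporter, had 12.2 and 4.86 CPM in the inputs and 9.86 and 8.56 CPM in the RIP, inside the range of the inputs.

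Longer transcripts held more of the enriched members. Enriched members had a median transcript length of 4508 nt, depleted members 2524 nt and members not called 3529 nt. Among the 45 shortest members (1240 to 3207 nt) 2 were enriched and 3 depleted, among the 44 of middle length (3236 to 4426 nt) 7 and 3, and among the 44 longest (4438 to 18464 nt) 11 and 0. Across members, the log2 fold change had a Pearson correlation of 0.44 and a Spearman correlation of 0.42 with log2 transcript length (n = 133), and across the 9291 protein-coding genes these were 0.54 and 0.49. These are correlations across genes measured in the same 4 libraries and are given as a description. When the length trend of each library was taken out as an offset, 11 members were enriched and 6 depleted, and 15 of the 26 called members kept their call. The 11 that lost it included *Slc12a2* (0.95), *Slc12a5* (0.79), *Slc36a1* (0.86), *Slc36a4* (0.77), *Slc6a17* (0.60), *Slc6a8* (0.83), *Slc1a4* (0.86) and *Slc25a28* (-0.54), whereas *Slc11a2* (1.41), *Slc25a51* (1.23), *Slc39a6* (1.08), *Slc1a2* (1.17) and *Slc25a5* (-1.07) stayed past the limits. After this correction 0 members were enriched at an adjusted p below 0.05 in edgeR, and the median log2 fold change of the members was -0.034, with -0.17 for all genes. The difference between the inputs went with GC content, with a Pearson correlation of -0.61 across members and -0.64 across protein-coding genes for replicate 2 minus replicate 1. The density of GGACT differed little, with medians of 1.07 per kb in enriched, 0.90 in depleted and 1.16 in members not called, and 1.04 per kb in the protein-coding genes.

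**Figure D3:**
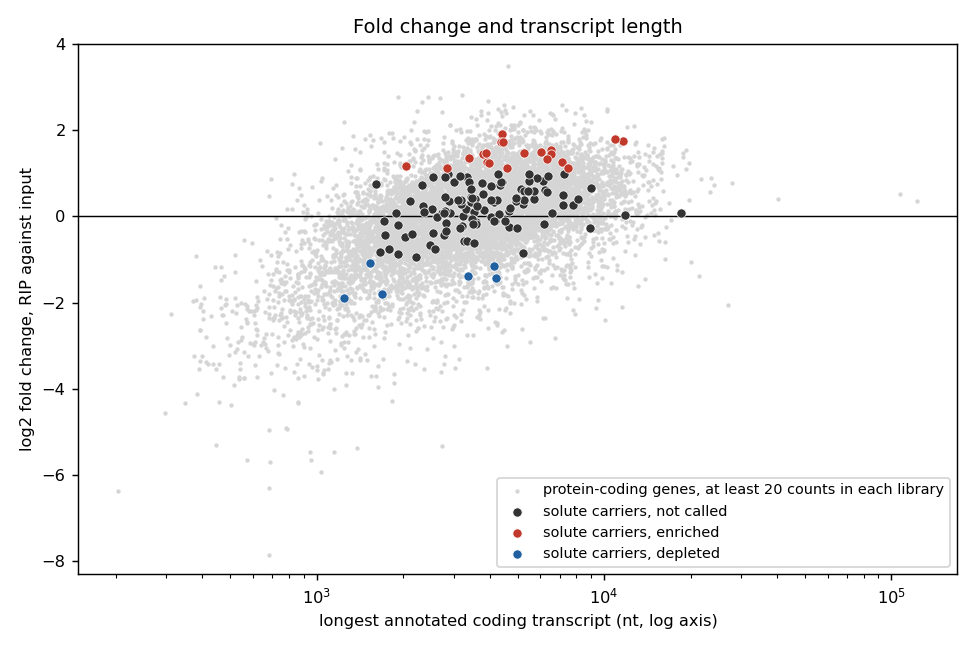
Log2 fold change of RIP against input (y axis) against the length of the longest coding transcript (x axis, nt, log axis). Light grey points are the 9291 protein-coding genes with at least 20 counts in each library, and larger points are the 133 members, red if enriched, blue if depleted and dark grey if not called. Blue points lie among the shorter transcripts, below 4438 nt, and 11 of the 20 red points lie at 4438 nt or more.

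All 26 called members kept their sign when any 1 library was left out, but many lost the call. With an input left out, the spread came from the RIP libraries alone, which differed less between replicates than the inputs. Calls kept or gained in those fits therefore leave out the spread between inputs. Without RIP 1, 12 of the 26 no longer passed, and without RIP 2, 13. Without input 1, 6 no longer passed, and without input 2, 3. With the RIP represented by a single library, which is then assumed to vary like the inputs, 13 members were enriched and 1 depleted in either case, and none had an adjusted p below 0.05 in edgeR, against 7 and 2 with all libraries. In the same fits 670 genes of 14810 tested were enriched and 1562 depleted without RIP 1, and 693 of 14889 were enriched and 1614 depleted without RIP 2. *Slc1a2*, *Slc25a46*, *Slc25a51* and *Slc39a6* were called in all 15 alternative fits, and *Slc11a2*, *Slc39a3*, *Slc5a3* and *Slc25a5* in 14 of 15. With the replicate number as a block all 26 calls stayed, and 12 members in place of 7 were enriched at an adjusted p below 0.05. Standard errors were larger with the block in some genes and smaller in others. For *Slc11a2* the SE was 0.51 with the block and 0.45 without, while the adjusted p in edgeR was 0.0016 and 0.0278. The lower p-values of the block fit are therefore not stronger evidence than those without the block.

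**Figure D4:**
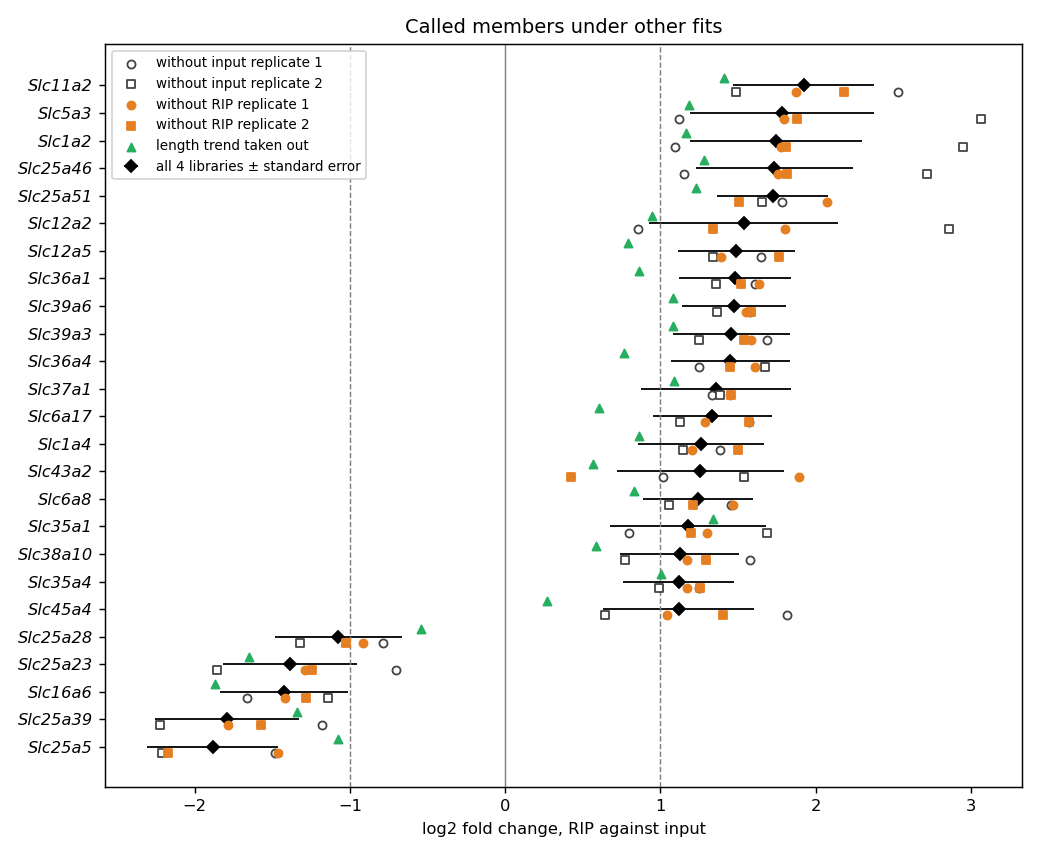
Log2 fold change of RIP against input (x axis) of 25 of the 26 called members. Black diamonds with bars of 1 standard error are the fit of all 4 libraries, open symbols leave out an input, orange symbols leave out a RIP library (circles replicate 1, squares replicate 2), green triangles have the length trend taken out, and dashed lines mark -1 and 1. Every symbol stays on its side of 0, and the fits without 1 library spread most for *Slc12a2* (0.86 to 2.86), *Slc5a3* (1.12 to 3.06) and *Slc1a2* (1.10 to 2.95).

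Other transporters, and the partners and regulators of solute carriers, were described through 4 lists, beside 9.43% enriched and 17.2% depleted among all genes tested. Apart from *Slc9a3r1*, the single genes given from these lists fall outside the naming rule and were named after their values were seen. Of 41 tested carriers of the SLC families with other symbols, 2 were enriched and 5 depleted. The organic anion transporter family member *Slco5a1* had 76 and 108 counts in the inputs against 327 and 359 in the RIP. Its log2 fold change was 2.36 ± 0.37 (SE; adjusted p = 0.00582 in edgeR). *Mpc1*, a subunit of the mitochondrial pyruvate carrier, had 109 and 78 counts in the inputs against 0 and 10 in the RIP. It passed the filter on low counts through the inputs, where it was high, so that its values are given as a description. Of 23 tested ABC transporters, which are driven by ATP, 7 were enriched and none depleted, with a median log2 fold change of 0.88. They included the lipid transporters *Abca1* (1.73 ± 0.47, SE; adjusted p = 0.0454) and *Abca7* (2.44 ± 0.51, SE; adjusted p = 0.0171). The ion-pumping ATPases had 6 enriched and 5 depleted genes among 31. *Atp2b3*, 1 of the 6, had 0 counts in both inputs against 13 and 9 in the RIP. It passed the filter on low counts only through the RIP libraries, where it was high. *Atp6ap2*, an accessory subunit of the vacuolar proton pump, had 44 and 118 counts in the inputs against 375 and 366 in the RIP, whereas *Atp1b2*, a beta subunit of the sodium pump, had 1203 and 1169 in the inputs against 223 and 275 in the RIP. Among 21 partners and regulators of solute carriers, a list that also holds the member *Slc9a3r1*, 2 were enriched and 4 depleted. *Bsg*, the chaperone of monocarboxylate transporters, had 1735 and 778 counts in the inputs against 250 in each RIP library, a log2 fold change of -1.88 ± 0.45 (SE; adjusted p = 0.0286). *Nedd4*, a ubiquitin ligase that acts on many membrane proteins, had 1039 and 1376 counts in the inputs against 2257 and 2042 in the RIP, a log2 fold change of 1.29 ± 0.34 (SE; adjusted p = 0.0405).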

How the data were processed

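RIP and input RNA of P0 retina were sequenced with a stranded library kit. The authors deposited raw counts per gene, and separately FPKM, in which the authors divided counts by gene length and library size. Per the labels' processing notes, STAR 2.5, HTSeq and the build GRCm38 were used. Annotation, strand setting and treatment of reads that match several genes are not given in the sources used here, and they bear on overlapping genes and paralogs. Ribosomal RNA genes held most counts of every library, so the protein-coding counts, not the totals, set the precision.

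Counts were fitted in R 4.3.3 with edgeR 4.0.16 (filterByExpr with a minimum count of 10 and minimum total of 15, TMM, glmQLFit, glmQLFTest) over all genes, with Benjamini-Hochberg adjustment over the 13632 genes tested. Calls used a log2 fold change of 1 and an unadjusted p of 0.05, the limits of the study's own list of targets. CPM values are counts divided by the TMM-scaled library size. The scripts were tested on simulated data. Lengths, motifs and coordinates came from GENCODE M21 (GRCm38), which held all 133 members; the longest protein-coding transcript stood for each gene, and sequence of chromosome 18 is not reported here.

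Groups and replicate numbers came from the labels. The series gives each replicate an input and a RIP library, so equal numbers mark a shared replicate. The deviations of same-numbered libraries had a Pearson r of -0.0282 and a Spearman correlation of -0.0322 across the 13632 genes. The fit left the replicate out, and a block on it was an alternative, as were other scalings (DESeq2 1.42.0 size factors, library size), the DESeq2 Wald test, other filters, limma 3.58.1 on FPKM, a length offset from mgcv 1.9.3, and leaving out each library. Nothing says whether the 2 replicates were separate litters, and p-values measure only the spread between these samples.

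The members, roles, marker and gene lists were chosen with earlier results of these data known. Named were the 12 enriched members with the largest rise and the depleted members (up to 12 each, changed alike in both replicates), the member with the highest input FPKM in each role, a panel of 18 carriers known from retina, and the genes next to the minimum. Single values of some genes that this rule names are not reported here.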

Additional observations from a re-analysis of the deposited data

How the results depend on the processing

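The values with TMM scaling and all libraries were 20 enriched and 6 depleted members, 7 and 2 at an adjusted p below 0.05, a median log2 fold change of 0.36, and 1286 enriched and 2344 depleted genes of all tested. Counts changed by less than 1.5 times with DESeq2 size factors and with TMM factors from genes other than the mitochondrially encoded and ribosomal RNA genes. With library size alone 35 members were enriched, 14 and 1 were called at an adjusted p, the median was 0.68 and 2359 of all genes were enriched. The DESeq2 Wald test gave 13 members enriched at an adjusted p. With no filter 1 member was depleted at an adjusted p and the median was 0.44, and with at least 10 counts in every library these were 4 and 0.29. With the replicate number as a block, 12 members were enriched at an adjusted p, and no other count of members moved by over 1.5 times. Leaving out 1 library in turn gave 13 to 28 enriched and 1 to 11 depleted members, 0 to 26 and 0 to 11 at an adjusted p, a median of 0.32 to 0.44, and 670 to 2097 enriched and 1562 to 2613 depleted genes of all tested. Of these fits, those without an input leave out the larger spread, that between inputs. With limma on log2(FPKM + 0.1), 2 members were depleted, 1 of them at an adjusted p, and the median was 0.50. With limma on log2(FPKM + 1), which understates changes of low genes, 5 were enriched, 1 was depleted and 1 was depleted at an adjusted p, the median was 0.20, and 386 and 1055 of all genes were enriched and depleted. With the length trend taken out, 11 members were enriched, 0 and 1 were called at an adjusted p, the median was -0.034 and 785 of all genes were enriched. With the length trend and the replicate block together these values were 11, 2 and 4, -0.023 and 837. Apart from the setting of log2(FPKM + 1) and the length trend, whose construction shrinks low values or removes the length trend, the causes of these changes were not tested. No called member changed sign under any of these settings. Of the named genes that were not called, 12 had the other sign in at least 1 setting, among them *Slc1a3*, *Slc6a9* and *Slc9a3r1*, and none of these was called with that sign. With 2 replicates per group, an exact permutation test of a single value cannot give a two-sided p below 0.333, so that the calls rest on the spread shared across genes.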

Other observations

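Below the minimum of 20 counts in each library were 207 genes with a symbol of the chosen form, of which 55 had enough counts to be tested. The filter asks for enough counts in as many libraries as a group holds, so a gene can pass through the group where it is high. *Slc6a2* and *Slc41a3* (0 and 9 counts in the inputs, 20 and 32 in the RIP) passed through the RIP libraries, and *Slc6a13* and *Slc25a40* through the inputs. Their values are therefore given as a description. *Slc26a10* (18 and 3 counts in the inputs, 34 and 29 in the RIP) and *Slc30a3* (9 and 28 in the inputs, 50 and 33 in the RIP) were low in 1 input. Among the 55 tested genes 7 were enriched and 3 depleted, against 9.43% and 17.2% of all genes tested. *Slc6a2*, the noradrenaline transporter, had 11 and 5 counts in the inputs against 68 and 65 in the RIP, a log2 fold change of 3.48 ± 0.60 (SE; adjusted p = 0.00805 in edgeR's quasi-likelihood test), and it was the only gene of the 55 with an adjusted p below 0.05. *Slc6a13*, a GABA transporter, had 37 and 26 counts in the inputs against 3 and 0 in the RIP (adjusted p = 0.0524). *Slc25a40*, a mitochondrial carrier, had 23 and 48 counts in the inputs against 5 and 4 in the RIP, a log2 fold change of -2.49 ± 0.78 (SE; adjusted p = 0.0699). The 4 genes whose lowest count was 19 were *Slc33a1*, *Slc2a3*, *Slc38a6* and *Slc4a4*, with log2 fold changes of 0.21 ± 0.61 (SE) for *Slc33a1* and -0.20 ± 0.65 (SE) for *Slc38a6*. The last of them, *Slc4a4*, a sodium bicarbonate cotransporter, had 19 and 29 counts in the inputs, 46 and 50 in the RIP and a log2 fold change of 1.46 ± 0.52 (SE; unadjusted p = 0.0223).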
